A study of Mus musculus with 8 samples.

Results

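A set of 24 protein-coding genes was studied whose RNA level in mouse splenic B cells was low after 3 days with CpG and higher again when LPS, PMA and ionomycin were present for the final 5 hours. They were chosen by their levels from 20182 protein-coding genes with an identifier in the files (37583 identifiers in all). Levels are in CPM, the usual unit in which the reads of a gene are scaled by all reads counted in genes of that library. A gene entered the set when its mean was at least 5 CPM in naive libraries, its CpG mean was at least 3-fold lower, and its TLR mean was at least 3 times the CpG mean. Each CpG library also had to lie below each naive and each TLR library. Of 9344 protein-coding genes with a naive mean of at least 5 CPM, 387 met the CpG conditions and 27 of those also met the TLR conditions. The rule left out immunoglobulin genes and some genes by name, of which 3 (Cd86, Lta and Sdc1) met the conditions. Because these values chose the genes, the differences between CpG and naive and between TLR and CpG libraries are given as a description, and the calls in them, counted once below, support nothing.

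There were 8 libraries, all of splenic B cells from C57BL/6 mice (strain B6), and no group carried a transgene or mutation in the labels. The TLR group (2 libraries) had CpG ODN1668 in culture for 3 days, to which LPS, PMA and ionomycin were added in the final 5 hours. CpG ODN1668 is a DNA oligonucleotide sensed by TLR9, LPS is sensed by TLR4, PMA switches on protein kinase C, and ionomycin lets calcium into the cell. The CpG group (3 libraries) was kept with CpG alone over the same 3 days, and the naive group (3 libraries) was labelled as naive B cells. The labels call the first group TLR-Bregs, where Breg is the usual short form of regulatory B cell, and the second CpG-B cells. The sample titles, however, name both groups Bregs, as Bregs-TLR and Bregs-CpG. The labels used here do not give the age or number of mice, whether animals were pooled, or the purity of the B cells. They do not say that libraries of a group came from separate cultures, so the p-values below rest on a spread between libraries that may be technical.

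Gene counts summed to 15804311 to 20069272 per library, so a single count was worth 0.0498 to 0.0633 CPM. The 7 B cell markers (among them Ms4a1 and Cd79a) summed to 2873 and 3009 CPM in TLR libraries, 8791 to 12980 CPM in CpG libraries and 10664 to 11021 CPM in naive libraries, and none was at 0 in any group. In the edgeR fit described below, all 7 were called lower in TLR than in naive libraries (29.7% of all tested genes were) and lower than in CpG libraries (19.8%). None was called in CpG against naive libraries. Replicate 1 of each group had the library name prefix RCa1 and the other libraries RCa18, a difference that the labels do not explain, and multi-aligned reads were 37.5% to 50.2% of the total in RCa1 libraries and 14.7% to 21.5% in RCa18 libraries. In the text below, values of a group are listed in the order of its replicate numbers. In bulk RNA, fewer cells of a type and less RNA per cell cannot be told apart.

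As background, B cells that meet a stimulus switch on a short wave of genes within hours. Calcium entry activates the phosphatase calcineurin and the factor NFAT, protein kinase C activates the MAP kinases that drive AP-1 and EGR factors, and Toll-like receptors activate NF-kB. Many genes of this wave are shut off again by feedback while a stimulus persists, and they can be induced again by a further one. The set holds a cytokine and a chemokine (Tnf and Ccl5) and an AP-1 factor (Fosb). It also holds regulators of G protein and GTPase signalling (Rgs1, Tagap and Iqgap2), kinase-linked proteins (Marcks and Cdk5r1) and surface receptors and ligands (Cd200, Tnfrsf21, Il18rap, Fcgr3 and Hcar2). The others are membrane and junction proteins (Epcam, Ildr1 and Stom), transporters and enzymes (Slc16a10, Slc45a3, Hmox1, Hs3st1 and Extl1), and Crip2, Hdgfl3 and Gm49339.

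The 250 bases before the transcription start of 4 members are shown because these genes are known to respond to activation of lymphocytes or carry letters that such factors bind. The sequences are from the RefSeq promoter table for GRCm38.p6, a later build than the mm9 that the submitters' processing notes name. They are read 5′ to 3′ on the strand of the gene, and capitals mark matches, on either strand, to a kB motif (the NF-kB site), GCGNGGGCG (the site of EGR factors) or TGGAAA (the core of NFAT sites).
Fosb (chr7:19310046-19310295, minus strand): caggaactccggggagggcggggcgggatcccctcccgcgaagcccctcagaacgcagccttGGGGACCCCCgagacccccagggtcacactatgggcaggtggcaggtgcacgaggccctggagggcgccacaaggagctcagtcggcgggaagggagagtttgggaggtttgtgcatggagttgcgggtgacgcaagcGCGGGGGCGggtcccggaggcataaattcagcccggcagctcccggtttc
Tnf (chr17:35202008-35202257, minus strand): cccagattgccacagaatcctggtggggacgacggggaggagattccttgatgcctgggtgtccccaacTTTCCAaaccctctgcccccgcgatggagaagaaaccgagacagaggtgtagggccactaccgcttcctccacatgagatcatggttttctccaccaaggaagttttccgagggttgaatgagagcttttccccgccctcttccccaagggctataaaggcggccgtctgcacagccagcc
Cd200 (chr16:45409054-45409303, minus strand): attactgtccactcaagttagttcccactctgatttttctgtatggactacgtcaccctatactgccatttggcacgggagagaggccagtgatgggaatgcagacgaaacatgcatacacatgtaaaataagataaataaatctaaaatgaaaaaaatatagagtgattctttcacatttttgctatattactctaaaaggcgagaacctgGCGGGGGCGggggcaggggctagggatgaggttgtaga
Tagap (chr17:7925750-7925999, plus strand): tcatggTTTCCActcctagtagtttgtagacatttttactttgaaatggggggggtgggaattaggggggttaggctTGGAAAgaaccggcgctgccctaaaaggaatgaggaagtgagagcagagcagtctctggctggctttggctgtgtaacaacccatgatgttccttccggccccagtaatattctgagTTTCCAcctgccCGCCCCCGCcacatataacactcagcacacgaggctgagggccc

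The Fosb stretch held a kB motif at bases -188 to -179 and an EGR motif at -50 to -42, counted back from the start. The Cd200 stretch held an EGR motif at -38 to -30, the Tnf stretch TGGAAA in reverse at -181 to -176, and the Tagap stretch an EGR motif at -44 to -36 and TGGAAA at 3 places (-244 to -239, -173 to -168 and -56 to -51). In the table, 17 of the 24 members were found, with 20 promoters of 300 bases (250 before to 50 after the start). The EGR motif was in 6 of these 20 (30.0%; Cd200, Crip2, Fosb, Slc16a10 and Tagap), against 5.55% of all 32851 promoters. TGGAAA was in 6 (30.0%; Extl1, Slc45a3, Tagap, Tnf and Tnfrsf21), against 21.4%, and the kB motif in 3 (15.0%; Fcgr3 and Fosb), against 4.51%. TGANTCA (AP-1), TGACGTCA (CRE) and the CArG box (the site of SRF) were in none of the 20, against 7.81%, 1.79% and 1.63% of all promoters. Promoters of 1 gene overlap or share letters, and these shares are a description of the letters in the windows.

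**Figure D1:**
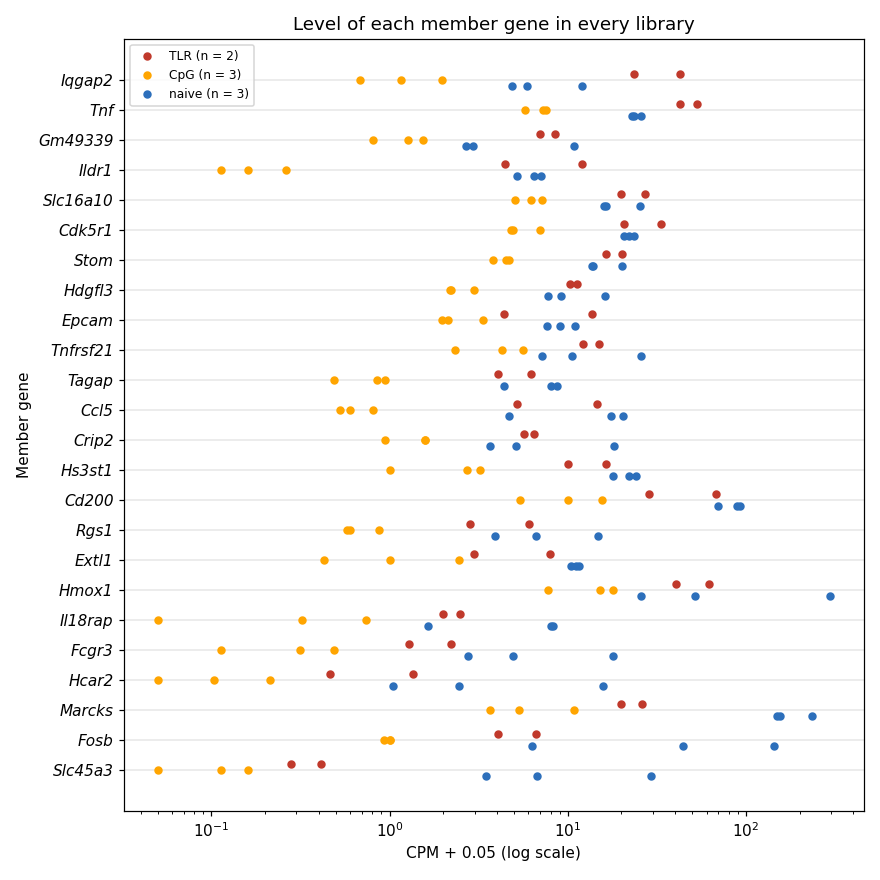
Level of each of the 24 members in every library, as CPM plus 0.05 on a log scale, with 2 TLR, 3 CpG and 3 naive libraries as points. Each CpG point lies left of the TLR and naive points of its gene, as the rule requires, while TLR and naive points overlap for 16 of the 24 genes.

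The difference between TLR and naive libraries was not itself a condition of the rule, but the levels on both sides of it were. It describes how far each gene came back. All 24 passed the filter on low counts. In the edgeR quasi-likelihood fit over 13964 genes, 2 of the 24 members were higher in TLR than in naive libraries (Tnf and Iqgap2), 5 were lower (Slc45a3, Fosb, Marcks, Hcar2 and Fcgr3) and 17 did not pass an adjusted p below 0.05. Over all tested genes 61.2% were called in this comparison, 31.6% higher and 29.7% lower. The same libraries' levels chose the members, so these shares, and the p-values of single members here and below, are not independent of the rule. The TLR mean was 68.7% of the naive mean for the median member, within a range of 2.24% (Slc45a3) to 438% (Iqgap2). It was under 25% of the naive mean for 5 members, 25% to 75% for 9 and 75% or more for 10. The median log2 fold change was -0.53 over the members and 0.01 over all tested genes. The rule sets a floor under these percents, since each TLR mean had to be at least 3 times the CpG mean. That floor is high where the naive mean was little over 3-fold the CpG mean, as in Slc16a10 (3.14), Tnf (3.51) and Tnfrsf21 (3.58). A TLR level near the naive one was partly fixed there, so the working description of the set as restored is no finding. By level, some members were near their naive mean, whereas Slc45a3, Fosb, Marcks, Hcar2 and Fcgr3 stayed at 2.24% to 20.0% of the naive mean. Except for Marcks, that mean rested mostly on a single naive library in these genes. TLR and naive libraries overlapped for Fosb and Hcar2, and the calls of Fosb, Hcar2 and Fcgr3 were lost in some alternative fits.

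**Figure D2:**
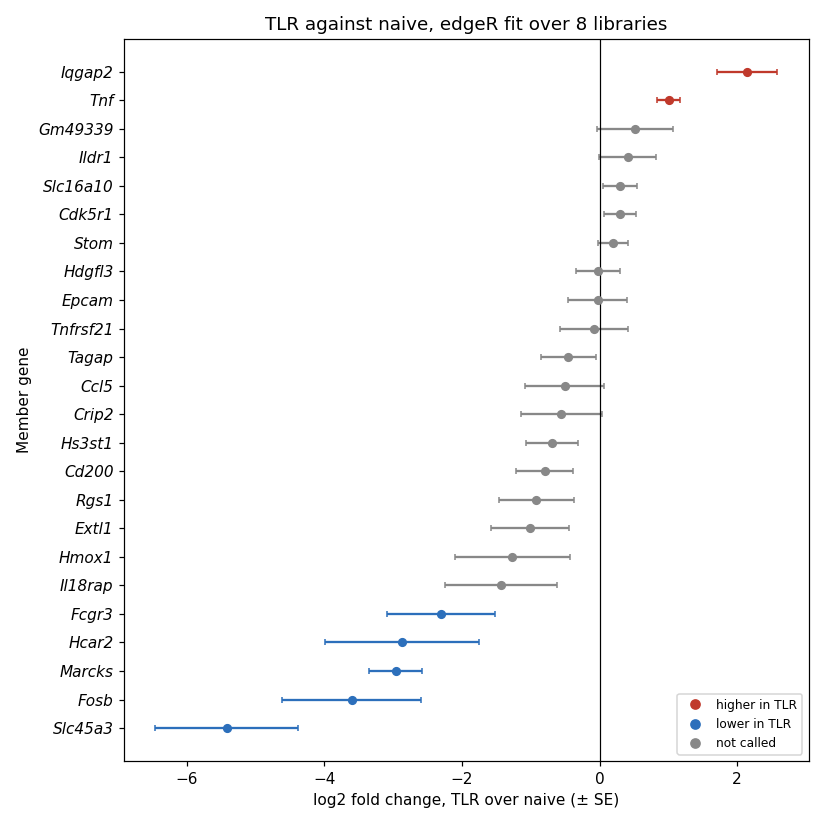
Log2 fold change of TLR over naive libraries for each member, with its SE, from the edgeR fit over all 8 libraries (2 TLR and 3 naive libraries compared). Red points were called higher (2 genes), blue points lower (5 genes) and grey points were not called (17 genes).

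Tnf, the gene of the inflammatory cytokine TNF, had 42.7 and 53.0 CPM in TLR libraries, 5.69, 7.52 and 7.23 CPM in CpG libraries and 22.7, 25.6 and 23.4 CPM in naive libraries. Both TLR libraries lay above every naive library (edgeR log2 fold change 1.01 ± 0.16, adjusted p = 0.000498). Iqgap2, a scaffold protein of the cell cortex that binds actin and small GTPases, had 23.4 and 42.8 CPM in TLR libraries, 0.633, 1.11 and 1.92 CPM in CpG libraries and 12.0, 4.78 and 5.85 CPM in naive libraries. Both TLR libraries were above every naive library here too (edgeR log2 fold change 2.15 ± 0.44, adjusted p = 0.00202), and the gap was wider in the RCa18 libraries (log2 ratio 3.01) than in the RCa1 pair (0.96). In no other member did both TLR libraries lie above every naive library, although the TLR mean also exceeded the naive mean in Gm49339, Ildr1, Slc16a10, Cdk5r1 and Stom without a call. No alternative fit changed the call of Tnf or Iqgap2.

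Ccl5, a chemokine that attracts T cells and monocytes, had 14.6 and 5.15 CPM in TLR libraries, 0.759, 0.477 and 0.548 CPM in CpG libraries and 20.2, 4.63 and 17.3 CPM in naive libraries. TLR and naive libraries overlapped (edgeR log2 fold change -0.51 ± 0.58, adjusted p = 0.464; 0.06 without TLR replicate 2). The 2 TLR libraries differed 2.83-fold. Fosb, a partner of Jun proteins in AP-1, had 3.99 and 6.54 CPM in TLR libraries, 0.949, 0.954 and 0.876 CPM in CpG libraries and 44.0, 6.28 and 143 CPM in naive libraries. Its naive libraries spanned a 22.8-fold range, and TLR replicate 2 lay above naive replicate 2. It was called lower in TLR libraries (edgeR log2 fold change -3.60 ± 1.01, adjusted p = 0.0112). The call was lost with a block for the replicate number (log2 fold change -2.13, edgeR adjusted p = 0.0579). Fits that keep 1 TLR library hold no spread between TLR libraries. They gave -3.28 without TLR replicate 1, -4.01 without TLR replicate 2 and -3.51 in the RCa18 libraries alone. The log2 fold change was -2.23 without naive replicate 3. In TLR libraries Fosb reached 8.17% of its naive mean.

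Among the signalling genes, Marcks had the highest naive level per length (44.3 CPM per kb of exon). It encodes a membrane-bound protein that binds actin and is a classic substrate of protein kinase C. Marcks had 25.9 and 19.8 CPM in TLR libraries, 3.61, 5.25 and 10.7 CPM in CpG libraries and 234, 155 and 149 CPM in naive libraries. Both TLR libraries lay below every naive library (edgeR log2 fold change -2.97 ± 0.38, adjusted p = 0.000110). Its TLR mean was 3.50-fold the CpG mean and 12.7% of the naive mean. No alternative fit changed this call.

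Cdk5r1, which encodes p35, an activator of the kinase CDK5, had 33.3 and 20.7 CPM in TLR libraries, 4.75, 6.89 and 4.88 CPM in CpG libraries and 20.6, 22.1 and 23.6 CPM in naive libraries. TLR replicate 2 lay level with the lowest naive library and TLR replicate 1 above all of them (edgeR log2 fold change 0.29 ± 0.23, adjusted p = 0.296; -0.07 without TLR replicate 1). Rgs1, which speeds the shut-off of G protein signalling from chemokine receptors, had 2.79 and 5.97 CPM in TLR libraries, 0.823, 0.530 and 0.548 CPM in CpG libraries and 14.8, 3.84 and 6.58 CPM in naive libraries. The groups overlapped, and the 2 TLR libraries differed 2.14-fold (edgeR log2 fold change -0.92 ± 0.54, adjusted p = 0.167). Tagap, a GTPase-activating protein named for its induction in T cells, had 3.99 and 6.18 CPM in TLR libraries, 0.886, 0.795 and 0.438 CPM in CpG libraries and 4.36, 8.62 and 7.99 CPM in naive libraries. TLR and naive libraries overlapped (edgeR log2 fold change -0.46 ± 0.40, adjusted p = 0.340). Its exons overlap E430024P14Rik on the opposite strand in GENCODE M21, and the counting ignored strand. The annotation used for counting is not given. Whether reads in the overlap were set aside as ambiguous or counted for Tagap is therefore unknown.

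Of the surface receptors and ligands, Cd200 was the most abundant per length in naive libraries. It encodes a membrane glycoprotein that signals to the inhibitory receptor CD200R on myeloid cells. Cd200 had 67.5 and 28.7 CPM in TLR libraries, 5.32, 15.4 and 10.0 CPM in CpG libraries and 69.6, 92.2 and 89.2 CPM in naive libraries. Both TLR libraries were below every naive library, but TLR replicate 1 nearly reached them while TLR replicate 2 did not (edgeR log2 fold change -0.80 ± 0.41, adjusted p = 0.114). The log2 fold change was -1.53 without TLR replicate 1 and -1.67 in the RCa18 libraries alone. Both fits rest on TLR replicate 2 as the only TLR library, so they hold no spread between TLR libraries. With all libraries, Cd200 was called lower by DESeq2 (-0.86, adjusted p = 0.0490) and by edgeR with no filter on low counts (-0.82, adjusted p = 0.0380).

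Tnfrsf21, which encodes death receptor 6, had 14.9 and 12.1 CPM in TLR libraries, 2.28, 4.24 and 5.59 CPM in CpG libraries and 25.8, 10.5 and 7.10 CPM in naive libraries. TLR libraries lay between the naive libraries (edgeR log2 fold change -0.08 ± 0.50, adjusted p = 0.895; 0.60 without naive replicate 1 and 0.06 without TLR replicate 2). Il18rap, the accessory chain of the IL-18 receptor, had 1.94 and 2.42 CPM in TLR libraries, 0, 0.689 and 0.274 CPM in CpG libraries and 8.24, 1.59 and 7.99 CPM in naive libraries. Naive replicate 2 was below both TLR libraries and the other naive libraries above them (edgeR log2 fold change -1.43 ± 0.81, adjusted p = 0.150). The gene was called lower without naive replicate 2 (log2 fold change -1.89, adjusted p = 0.0461).

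Fcgr3, which encodes the IgG receptor CD16 of myeloid and natural killer cells, had 2.17 and 1.24 CPM in TLR libraries, 0.0633, 0.265 and 0.438 CPM in CpG libraries and 17.9, 4.88 and 2.71 CPM in naive libraries. Hcar2, a receptor for niacin and ketone bodies known from myeloid cells and fat, had 1.31 and 0.412 CPM in TLR libraries, 0, 0.0530 and 0.164 CPM in CpG libraries and 15.7, 2.39 and 0.992 CPM in naive libraries. In both genes naive replicate 1 was far above the other naive libraries. Both TLR libraries lay below every naive library for Fcgr3. For Hcar2 the groups overlapped, with TLR replicate 1 above naive replicate 3. Fcgr3 was called lower in TLR libraries (edgeR log2 fold change -2.30 ± 0.79, adjusted p = 0.0279). That call was lost without naive replicate 1 (log2 fold change -1.18, edgeR adjusted p = 0.0933). It was kept with the prefix as a term (edgeR adjusted p = 0.0145) and with a block for the replicate number (edgeR adjusted p = 0.0175). With 1 TLR library kept, the log2 fold change was -2.74 without TLR replicate 1 and -1.95 without TLR replicate 2. Hcar2 was called lower as well (edgeR log2 fold change -2.87 ± 1.12, adjusted p = 0.0473). Its call was lost without naive replicate 1 (log2 fold change -1.01, edgeR adjusted p = 0.261) and with naive and TLR libraries only (edgeR adjusted p = 0.0729). It was lost too without CpG replicate 1, 2 or 3 (edgeR adjusted p = 0.0585, 0.0590 and 0.0571). The call of Hcar2 was kept with the prefix as a term (edgeR adjusted p = 0.0106) and with a block for the replicate number (edgeR adjusted p = 0.0105). With 1 TLR library kept, the log2 fold change was -3.89 without TLR replicate 1, -2.25 without TLR replicate 2 and -2.03 in the RCa18 libraries alone. The TLR libraries held 31 counts of Hcar2 in all, the CpG libraries 4 and the naive libraries 363.

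Epcam and Ildr1 encode proteins best known from epithelia, the adhesion molecule EpCAM and a protein of tricellular junctions. Epcam had 4.33 and 13.5 CPM in TLR libraries, 2.09, 3.29 and 1.92 CPM in CpG libraries and 9.04, 7.62 and 10.9 CPM in naive libraries. Its naive libraries lay between the 2 TLR libraries, which differed 3.13-fold (edgeR log2 fold change -0.03 ± 0.43, adjusted p = 0.958; 0.58 without TLR replicate 1 and 0.11 without naive replicate 3). Ildr1 had 12.0 and 4.37 CPM in TLR libraries, 0.0633, 0.212 and 0.110 CPM in CpG libraries and 6.38, 5.13 and 6.99 CPM in naive libraries. Its CpG level rested on 7 counts in 3 libraries, against 296 in the TLR and 357 in the naive libraries. The naive libraries again lay between the TLR libraries (edgeR log2 fold change 0.41 ± 0.41, adjusted p = 0.409; -0.48 without TLR replicate 1). Stom, the membrane protein stomatin, had 20.0 and 16.3 CPM in TLR libraries, 3.73, 4.61 and 4.44 CPM in CpG libraries and 20.1, 13.9 and 13.6 CPM in naive libraries. TLR libraries lay among the naive ones (edgeR log2 fold change 0.20 ± 0.22, adjusted p = 0.446).

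In GRCm38.p6, Ildr1 is next to Cd86 on chromosome 16 and Tnf is next to Lta on chromosome 17, with no other protein-coding gene between them in RefSeq. Both neighbours met the same conditions on levels but were left out of the set by name. No other 2 of the 27 genes that met the conditions were neighbours.

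Slc16a10, a transporter of aromatic amino acids, had 27.1 and 19.8 CPM in TLR libraries, 5.00, 7.10 and 6.19 CPM in CpG libraries and 25.2, 16.3 and 15.9 CPM in naive libraries. TLR replicate 1 was the highest library and TLR replicate 2 lay among the naive ones (edgeR log2 fold change 0.30 ± 0.24, adjusted p = 0.311). Hs3st1, which adds sulfate to heparan sulfate chains, had 10.0 and 16.3 CPM in TLR libraries, 0.949, 3.18 and 2.68 CPM in CpG libraries and 22.0, 17.8 and 24.1 CPM in naive libraries. Both TLR libraries of Hs3st1 were below every naive library without passing the test (edgeR log2 fold change -0.69 ± 0.38, adjusted p = 0.141). The gene was called lower without CpG replicate 1 (log2 fold change -0.68, adjusted p = 0.0367) and with naive and TLR libraries only (-0.71, adjusted p = 0.0382). Extl1, a glycosyltransferase of the same heparan sulfate pathway, had 7.92 and 2.93 CPM in TLR libraries, 0.380, 0.954 and 2.41 CPM in CpG libraries and 11.5, 11.1 and 10.3 CPM in naive libraries. Again every TLR library was below every naive one (edgeR log2 fold change -1.02 ± 0.57, adjusted p = 0.146). The log2 fold change was -1.88 without TLR replicate 1 and -0.47 without TLR replicate 2. The value was -1.87 in the RCa18 libraries alone, which hold 1 TLR library. Extl1 was called lower in a fit of naive and TLR libraries only (-1.05, edgeR adjusted p = 0.0462).

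Hmox1 encodes heme oxygenase 1, which breaks down heme and is abundant in the macrophages of the spleen that clear red blood cells. It had 61.6 and 40.5 CPM in TLR libraries, 15.2, 7.74 and 18.0 CPM in CpG libraries and 295, 51.7 and 25.8 CPM in naive libraries. Naive replicate 1 was 5.71-fold above the next naive library, and the TLR libraries overlapped the others (edgeR log2 fold change -1.27 ± 0.83, adjusted p = 0.210). Without naive replicate 1 the log2 fold change was 0.37, and without naive replicate 3 the gene was called lower (-1.75, adjusted p = 0.0453).

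Slc45a3, a solute carrier known as prostein in the prostate, met the rule with almost no reads in culture. It had 0.228 and 0.360 CPM in TLR libraries, 0.0633, 0 and 0.110 CPM in CpG libraries and 29.3, 6.68 and 3.44 CPM in naive libraries. The TLR libraries held 11 counts and the CpG libraries 3, a depth-scaled ratio of 5.25 with an exact 95% counting interval of 1.39 to 29.3. The rule chose the gene on this ratio, so the interval shows how few counts it rests on and is no test. The naive libraries held 752 counts. Such an interval covers counting error alone. Exons of Slc45a3 overlap Gm29103, a processed transcript on the same strand, which adds to the doubt about counts this low. Slc45a3 was called lower in TLR than in naive libraries (edgeR log2 fold change -5.42 ± 1.04, adjusted p = 0.00136; -4.09 without naive replicate 1), and no alternative fit changed the call.

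Crip2, a LIM domain protein, had 6.44 and 5.61 CPM in TLR libraries, 0.886, 1.54 and 1.53 CPM in CpG libraries and 18.2, 5.08 and 3.60 CPM in naive libraries. Its TLR and naive libraries overlapped (edgeR log2 fold change -0.56 ± 0.59, adjusted p = 0.434; 0.45 without naive replicate 1). Hdgfl3, a relative of hepatoma-derived growth factor, had 11.2 and 10.2 CPM in TLR libraries, 2.91, 2.17 and 2.14 CPM in CpG libraries and 16.2, 7.72 and 9.08 CPM in naive libraries. Here too the groups overlapped (edgeR log2 fold change -0.03 ± 0.32, adjusted p = 0.948; 0.33 without naive replicate 1 and 0.04 without TLR replicate 2). In both genes naive replicate 1 was the highest library and the TLR libraries lay below it and above the other naive libraries. Exons of Hdgfl3 overlap Tm6sf1 on the opposite strand, and it is likewise unknown whether reads in the overlap were set aside or counted for Hdgfl3. Gm49339 had 8.38 and 6.95 CPM in TLR libraries, 0.759, 1.22 and 1.48 CPM in CpG libraries and 10.7, 2.64 and 2.87 CPM in naive libraries. It was not called (edgeR log2 fold change 0.52 ± 0.55, adjusted p = 0.438), but was called higher without naive replicate 1 (1.45, edgeR adjusted p = 0.00535). The log2 fold change was 1.33 in the RCa18 libraries alone, which hold 1 TLR library. Exons of Gm49339 overlap Lilr4b and Lilrb4a on the same strand and Gm40645 on the opposite one, so its counts are uncertain.

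Naive replicate 1 was at least 2 times both other naive libraries in 9 of the 24 members (Crip2, Fcgr3, Gm49339, Hcar2, Hmox1, Iqgap2, Rgs1, Slc45a3 and Tnfrsf21), against 2.16% of all protein-coding genes with a naive mean of at least 5 CPM. The rule used these levels, so the shares are a description. No share is given for the CpG-lowered genes as a whole, so it is not shown whether the members differ from them here. The 13 macrophage and monocyte markers summed to 31.3 and 33.7 CPM in TLR libraries, 84.0, 72.0 and 109.8 CPM in CpG libraries and 1753, 416 and 218 CPM in naive libraries. Their sum was thus highest in naive replicate 1 too, and 11 of the 13 fell in TLR against naive libraries with none higher, none being at 0 in any group. Between TLR and CpG libraries, where the 9 members were at least 3-fold higher in TLR, the marker sum was lower in TLR and 2 of the 13 markers fell with none higher. Without these 9 members, 1 of the other 15 was called higher (Tnf) and 2 lower (Fosb and Marcks) in TLR against naive libraries. The part of macrophages in the naive levels of the 9 members was not tested.

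The sum of the 7 erythroid markers was also higher in TLR than in CpG libraries, at 35.1 and 36.8 CPM in TLR libraries, 3.54, 12.1 and 7.61 CPM in CpG libraries and 58.0, 5.73 and 11.9 CPM in naive libraries. Nearly all of the TLR sum came from Hbb-bt, a beta globin gene with 33.5 and 36.2 CPM in TLR libraries, 2.47, 11.7 and 7.18 CPM in CpG libraries and 10.6, 1.74 and 3.13 CPM in naive libraries. The other globin genes were at or near 0 in both cultured groups, where Hba-a2 had no count. Hba-a1 was at 0.0570 and 0 CPM in TLR libraries, 0, 0 and 0.110 CPM in CpG libraries and 7.07, 0.399 and 0.835 CPM in naive libraries. Hbb-bs was at 0.513 and 0 CPM in TLR libraries, 0.569, 0 and 0.0548 CPM in CpG libraries and 32.6, 1.74 and 5.38 CPM in naive libraries. Of 5 tested erythroid markers, 2 (Hbb-bt and Epor) were higher in TLR than in CpG libraries. Epor was also lower in CpG than in naive libraries. Of 10 tested dendritic cell markers, Zbtb46 was higher and Flt3 lower in TLR than in CpG libraries, and 8 were not called. In CpG against naive libraries 7 of these 10 were lower, Zbtb46 among them. The part of red cell precursors or dendritic cells in the levels of the members was not tested.

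The 11 natural killer cell markers summed to 1.37 and 1.75 CPM in TLR libraries, 1.71, 3.02 and 2.46 CPM in CpG libraries and 96.5, 21.6 and 81.8 CPM in naive libraries, and all 11 fell in TLR against naive libraries. Ncr1, Klra4, Gzma and Gzmb had no count in the TLR or the CpG libraries, where Klra1 (TLR) and Klrk1 (CpG) were also at 0. Ccl5 and Il18rap, both known from natural killer and T cells, had the same order of naive replicates, with replicate 2 lowest. The 14 T cell markers summed to 31.1 and 35.4 CPM in TLR libraries, 96.8 to 128 CPM in CpG libraries and 72.3 to 117 CPM in naive libraries, with 12 of 14 lower in TLR against naive libraries. In CpG against naive libraries 10 of the 14 were lower too, and Il7r, at 4.67 and 3.45 CPM in TLR libraries, 24.8, 32.6 and 82.9 CPM in CpG libraries and 2.29, 2.24 and 7.83 CPM in naive libraries, was the 1 marker called higher. The T cell sum in CpG libraries therefore does not follow most of its markers. Cd3e, Cd4 and Cd8b1 were at 0 in TLR libraries and Cd8a in CpG libraries. Neither sum was higher in TLR than in CpG libraries, whereas Ccl5 was 16.6-fold and Il18rap 6.79-fold higher there. The part of these cells in the naive levels of Ccl5 and Il18rap was not tested.

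**Figure D3:**
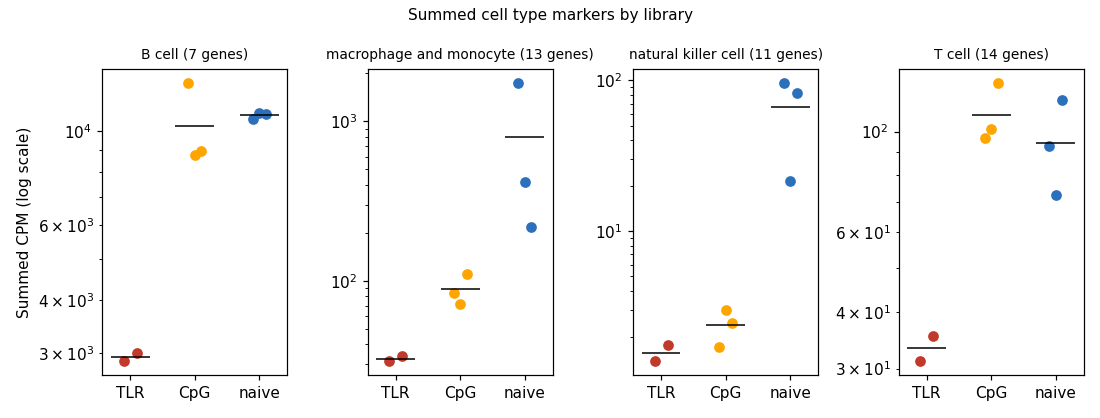
Summed CPM of the markers of 4 cell types in each library on a log scale, with TLR, CpG and naive libraries from left to right and a line at the group mean. Within a group, points run from replicate 1 on the left; macrophage markers reach 1753 CPM in naive replicate 1 and stay at 31.3 and 33.7 CPM in TLR libraries.

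Within the prefixes, the sign of TLR over naive was shared by RCa1 and RCa18 libraries for 14 of the 24 members, and for all 7 that were called. Over all called genes 99.96% had the same sign in both, but calls came from the same libraries. The 10 members whose sign differed were Cdk5r1 and Ildr1, which were higher in TLR in the RCa1 pair only, and Crip2, Epcam, Gm49339, Hdgfl3, Hmox1, Rgs1, Stom and Tnfrsf21, which were higher in TLR in the RCa18 libraries only. None of the 10 was called in the fit over all libraries. The TLR libraries differed at least 2-fold from each other in 7 members, and replicate 1 was above replicate 2 in 15 and below it in 9.

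**Figure D4:**
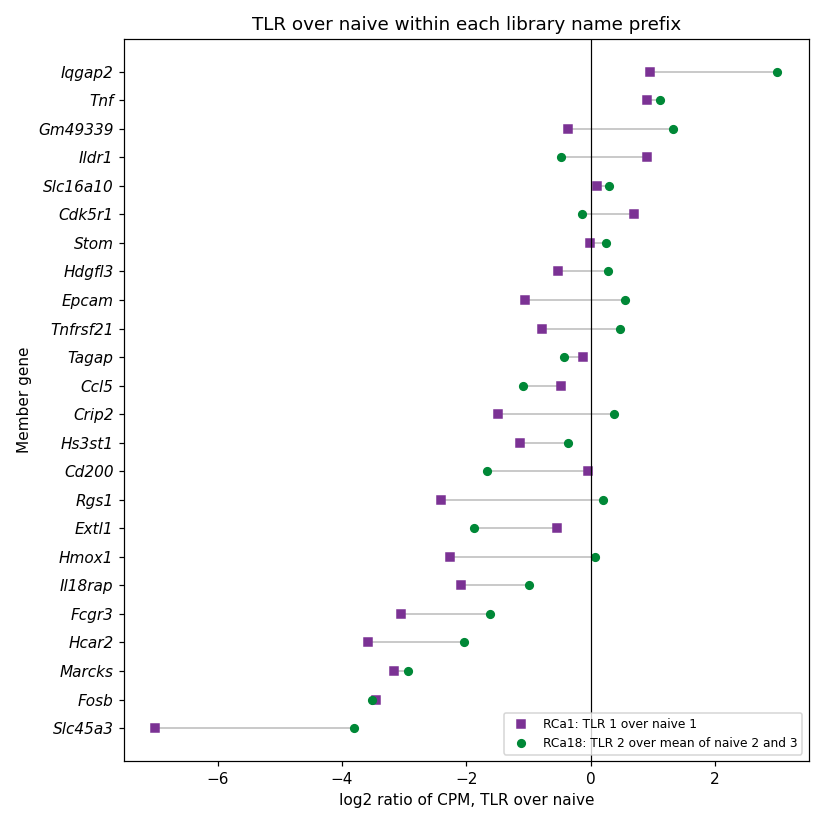
Log2 ratio of CPM, TLR over naive, within each library name prefix for the 24 members: squares give TLR replicate 1 over naive replicate 1 (RCa1), circles TLR replicate 2 over the mean of naive replicates 2 and 3 (RCa18). The lines join the values of a gene, which lie on the same side of 0 for 14 members.

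In the contrasts that the rule used, log2 fold changes of CpG against naive libraries ran from -7.66 (Slc45a3) to -1.63 (Slc16a10) with a median of -3.13, and those of TLR against CpG libraries from 1.73 (Tnfrsf21) to 5.87 (Ildr1) with a median of 2.38. Both contrasts share the CpG libraries. All 24 were called lower in CpG against naive libraries, where 21.9% of all tested genes were, and 20 were called higher in TLR against CpG libraries, where 19.0% of all tested genes were. Nothing is read from these counts. Fosb, Hcar2, Hmox1 and Slc45a3 met the rule without a call between TLR and CpG libraries.

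Nearest to the 3-fold limit between naive and CpG means were Slc16a10 (3.14), Tnf (3.51) and Tnfrsf21 (3.58) inside and Rsad2 (2.94), Car2 (2.90) and Ffar2 (2.70) outside. Nearest to the limit between TLR and CpG means were Tnfrsf21 (3.35), Marcks (3.50) and Epcam (3.68) inside and Ank (2.80), Rhbdf1 (2.77) and AW011738 (2.68) outside. At the limit of 5 CPM, Gm49339 (5.42 CPM), Il18rap (5.94 CPM) and Ildr1 (6.17 CPM) stood inside, and Il18r1 (4.77 CPM), Dll1 (3.98 CPM) and Gpr141 (3.67 CPM) outside. Il18r1, the binding chain of the same IL-18 receptor as Il18rap, thus missed only the level limit.

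The 27 genes that met all conditions on levels were 6.98% of the CpG-lowered genes. Of the 387 genes that met the CpG conditions, 360 (all tested) did not meet the TLR conditions. Their TLR mean was 6.13% of the naive mean in the median gene. In TLR against CpG libraries 147 of them were lower, 10 higher and 203 not called, where 19.8% of all tested genes were lower and 19.0% higher. In TLR against naive libraries 353 were lower, none was higher and 7 were not called, where 29.7% of all tested genes were lower. The choice of these 360 genes by a low CpG level and no TLR rise largely fixes both counts, so they are a description.

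**Figure D5:**
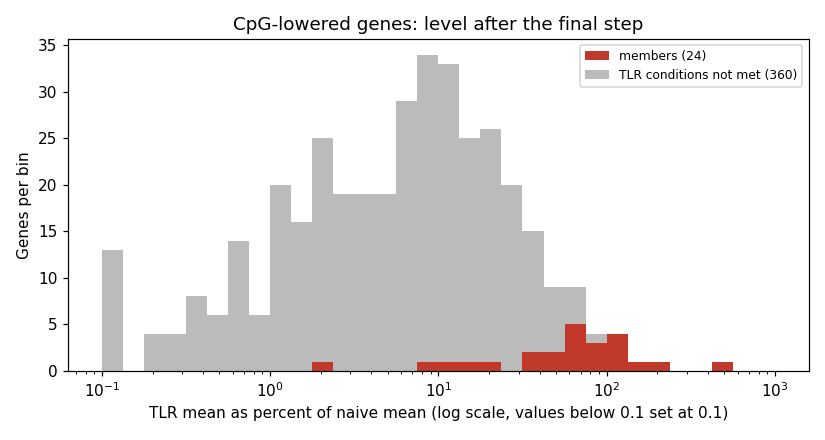
Number of CpG-lowered genes by their TLR mean as a percent of the naive mean on a log scale, with the 24 members in red and the 360 genes that did not meet the TLR conditions in grey. The grey genes have a median of 6.13% and the members one of 68.7%, a gap that the rule itself helps to make.

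Other genes of the pathways named above were taken from lists of known genes of each pathway. For the counts below, the shares over all tested genes were 31.6% higher and 29.7% lower in TLR against naive libraries, 19.0% higher and 19.8% lower in TLR against CpG libraries, and 23.5% higher and 21.9% lower in CpG against naive libraries. Of 35 tested immediate early, AP-1, EGR and NR4A genes other than Fosb, 18 rose and 11 fell in TLR against naive libraries, 17 rose and 4 fell in TLR against CpG libraries, and 6 rose and 14 fell in CpG against naive libraries. Junb, Ier2, Zfp36 and Dusp2 were called in the direction of the set at both steps without meeting both fold limits. The share of all tested genes called in this way is not given here. Nothing is therefore read from the number of such genes in this list or those below. Junb, another AP-1 subunit, averaged 688 ± 134 CPM in TLR, 193 ± 14.2 CPM in CpG and 362 ± 170.2 CPM in naive libraries (SD, n = 2, 3 and 3). Dusp2, a phosphatase that switches off MAP kinases, averaged 477 ± 29.3 CPM in TLR, 142 ± 20.0 CPM in CpG and 285 ± 76.2 CPM in naive libraries. Junb and Dusp2 were higher in TLR than in naive libraries (log2 fold change 0.93 and 0.75, edgeR adjusted p = 0.0230 and 0.0137). Zfp36, which speeds the decay of cytokine mRNAs, averaged 306 ± 81.8 CPM in TLR, 201 ± 29.7 CPM in CpG and 579 ± 95.3 CPM in naive libraries, lower in TLR than in naive libraries (log2 fold change -0.91, edgeR adjusted p = 0.00403). Others of the list did not follow: Klf2, a quiescence factor of lymphocytes, averaged 7.58 ± 0.487 CPM in TLR, 307 ± 30.7 CPM in CpG and 711 ± 131 CPM in naive libraries. Atf3, a stress-induced factor, averaged 151 ± 36.2 CPM in TLR, 163 ± 37.1 CPM in CpG and 0.712 ± 0.350 CPM in naive libraries. Batf, an AP-1 factor of activated lymphocytes, averaged 490.3 ± 87.6 CPM in TLR, 239.7 ± 32.9 CPM in CpG and 14.1 ± 0.588 CPM in naive libraries. Klf6 averaged 28.6 ± 2.36 CPM in TLR, 57.8 ± 3.01 CPM in CpG and 193 ± 11.0 CPM in naive libraries.

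Of 26 tested cytokine, chemokine and TNF family genes other than Tnf and Ccl5, 8 rose and 9 fell in TLR against naive libraries, 7 rose and 4 fell in TLR against CpG libraries, and 8 rose and 10 fell in CpG against naive libraries. Cxcl10, an interferon-induced chemokine, was called in the set's direction at both steps, averaging 5.04 ± 1.32 CPM in TLR, 0.0177 ± 0.0306 CPM in CpG and 1.19 ± 1.13 CPM in naive libraries (a single count in the CpG libraries), and was under the level limit. Il10, the cytokine of regulatory B cells, averaged 647 ± 5.58 CPM in TLR, 50.4 ± 9.10 CPM in CpG and 0.472 ± 0.421 CPM in naive libraries, a rise at both steps. Ltb, the membrane partner of lymphotoxin, averaged 10.6 ± 0.386 CPM in TLR, 177 ± 62.8 CPM in CpG and 817 ± 48.5 CPM in naive libraries. It fell at both steps, while Tnf, of the same ligand family, was higher in TLR than in CpG libraries.

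Of 27 tested calcium and NFAT genes other than Cd200, 5 rose and 13 fell in TLR against naive libraries, 5 rose and 10 fell in TLR against CpG libraries, and 5 rose and 9 fell in CpG against naive libraries. Irf4, a factor of activated B cells and plasma cells, was called in the set's direction at both steps, averaging 266 ± 84.3 CPM in TLR, 124 ± 45.5 CPM in CpG and 301 ± 23.0 CPM in naive libraries. It was not called in TLR against naive libraries (log2 fold change -0.18 ± 0.29, edgeR adjusted p = 0.619). Nfatc1 itself averaged 54.9 ± 4.64 CPM in TLR, 192 ± 33.4 CPM in CpG and 319 ± 3.98 CPM in naive libraries. Zbtb32, a repressor induced in activated lymphocytes, averaged 309 ± 86.9 CPM in TLR, 74.2 ± 15.4 CPM in CpG and 5.84 ± 2.44 CPM in naive libraries. Of 32 tested NF-kB genes, none of them a member, 15 rose and 7 fell in TLR against naive libraries, 12 rose and 7 fell in TLR against CpG libraries, and 12 rose and 7 fell in CpG against naive libraries. The subunit genes Nfkb2 and Rel were called in the set's direction at both steps. Nfkb2 averaged 395 ± 113 CPM in TLR, 199 ± 7.08 CPM in CpG and 400.4 ± 58.5 CPM in naive libraries. Rel averaged 113 ± 11.8 CPM in TLR, 59.8 ± 11.0 CPM in CpG and 99.4 ± 8.28 CPM in naive libraries. Neither was called in TLR against naive libraries (edgeR adjusted p = 0.945 and 0.337).

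Of 26 tested trafficking and adhesion genes other than Rgs1, 4 rose and 16 fell in TLR against naive libraries, 2 rose and 15 fell in TLR against CpG libraries, and 5 rose and 15 fell in CpG against naive libraries. No gene of this list was called in the set's direction at both steps. S1pr1, the receptor by which lymphocytes leave lymphoid organs, averaged 3.82 ± 0.237 CPM in TLR, 109 ± 23.9 CPM in CpG and 404 ± 47.5 CPM in naive libraries. The lists of antigen presentation (24 tested), B cell identity and receptor signalling (39) and apoptosis (23) held no member of the set and no gene called in its direction at both steps. In TLR against naive libraries they gave 1 higher and 21 lower, 3 higher and 31 lower, and 14 higher and 6 lower.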

How the data were processed

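The authors deposited raw read counts per gene, 1 file per library. The submitters' processing notes list STAR, HTSeq, edgeR and the build mm9, and per the file names counting ignored strand, although the labels' protocols name a strand-specific kit after polyA selection. No source used here gives the annotation release. Summary lines (reads in no gene 7.84% to 15.0%) were set apart. Symbols and biotypes came from GENCODE M21 by identifier (32860 of 37583 matched).

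Counts were fitted in R 4.3.3 with edgeR 4.0.16 (filterByExpr, TMM, quasi-likelihood, a mean per group, all 8 libraries, Benjamini-Hochberg over 13964 genes, prior count 0.125). Standard errors were derived as the absolute log2 fold change over root F. Alternatives were other filters, fewer libraries, library size alone, RLE factors, DESeq2 1.42.0, a replicate block, the prefix as a term, and no immunoglobulin genes. The fit was tested on simulated data. Same-numbered libraries are not paired by the labels.

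The members and lists were chosen with earlier results of these data known. All members are named, with other list genes by smallest p (up to 4 a list), and Junb, Ier2, Zfp36, Dusp2, Irf4, Cxcl10, Nfkb2 and Rel after their values were seen. Figures were drawn in matplotlib 3.10.9.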

Additional observations from a re-analysis of the deposited data

How the results depend on the processing

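Of 432 values of single members under 18 alternative fits, 386 kept direction and call, 15 lost and 12 gained a call, and 19 turned sign, each of them in a gene that was not called. Iqgap2, Marcks, Slc16a10, Slc45a3, Stom, Tagap and Tnf kept direction and call in all 18. In the RCa18 libraries alone the log2 fold change turned to -0.14 for Cdk5r1, 0.36 for Crip2, 0.54 for Epcam, 0.28 for Hdgfl3, 0.057 for Hmox1, -0.47 for Ildr1, 0.19 for Rgs1 and 0.46 for Tnfrsf21. Leaving out 1 library at a time gave ranges that cross 0 for Ccl5 (-1.42 to 0.060), Cdk5r1 (-0.075 to 0.59), Crip2 (-0.94 to 0.45), Epcam (-1.08 to 0.58), Hdgfl3 (-0.23 to 0.33), Hmox1 (-1.75 to 0.37), Ildr1 (-0.48 to 0.96) and Tnfrsf21 (-0.41 to 0.60), and gave 2 to 3 members higher and 2 to 6 lower in TLR against naive libraries. With the replicate block 2 members were higher and 4 lower, Fosb losing its call (log2 fold change -2.13, adjusted p = 0.0579). The deviations of same-numbered libraries correlated by 0.127 and 0.0250 between TLR and naive, by 0.325 and 0.297 between TLR and CpG, and by 0.160, 0.104 and 0.00359 between CpG and naive. Since not every pair passed 0.1 and the labels tie no numbers, they were not treated as pairs, although number 1 correlated across all groups and shares the RCa1 prefix. Some RCa18 libraries of different numbers also correlated, naive replicate 3 by 0.146 with TLR replicate 2 and by 0.147 with CpG replicate 2. Others did not (0.00836 between naive replicate 2 and CpG replicate 3). With 2 TLR libraries, the deviations of 1 mirror those of the other, so their values are not free. Without the 9 members high in naive replicate 1, an alternative added after the data were seen, 1 was higher and 2 lower. The cause of these changes was not tested, beyond the fewer genes or libraries used. All-gene calls in TLR against CpG libraries ranged from 1683 to 2756 higher and from 1833 to 2869 lower with 1 library left out. The rule gave 24 genes with TMM-scaled CPM, 55 at 2-fold, 17 at 4-fold, 56 at a naive mean of at least 1 CPM, and 16 to 31 with 1 library left out. The motif counts were the same in the 250 bases before the start. Depth limits Slc45a3, Hcar2 and Ildr1 most, with 3, 4 and 7 counts in the CpG libraries together, and 2 TLR libraries limit every comparison. Fits without TLR replicate 1 or 2, or to the RCa18 libraries alone, keep 1 TLR library. Their calls hold no spread between TLR libraries, yet they are among the counts and ranges above.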

Other observations

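With a 2-fold in place of a 3-fold limit at both steps, 31 further genes met the conditions. Among them, chosen after their values were seen, were the cytoskeletal genes Actg1, Actn1 and Zyx, the circadian repressors Cry2 and Per2, and Irf4. With a naive mean of at least 1 CPM in place of 5 CPM, 32 further genes met the conditions, among them the cytokine gene Il24, the ectonucleotidase gene Nt5e and Il18r1. Without naive replicate 1, 8 members no longer met the rule (Crip2, Fcgr3, Gm49339, Hcar2, Hmox1, Il18rap, Slc16a10 and Tnfrsf21) and none was gained.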
